A study of Homo sapiens with 6 samples.

Results

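The mast cell genes described here are 9 of the 62016 genes in each deposited table. They were taken by symbol, and each of the 9 has 1 row per table. There were 4 tryptase genes (TPSAB1, TPSB2, TPSD1 and TPSG1) and 5 other genes of mast cells (CPA3, HDC, HPGDS, SLC45A3 and MS4A2). RNA was sequenced from Kasumi-1, an established human line of acute myeloid leukemia in which AML1-ETO is present, a fusion protein that joins parts of RUNX1, a transcription factor, and RUNX1T1. Cells had been infected for 4 days with pLKO virus for JMJD1C shRNA63, JMJD1C shRNA95 or a control shRNA, with 2 libraries for each of the 3 groups. JMJD1C is a JmjC-domain protein of the histone demethylase family KDM3, and the comparisons ask how its depletion changes RNA levels. A further table sets AML1-ETO shRNA (1 library) against control shRNA (1 library), both from another published series. Whether the libraries of a group were grown as separate cultures is not stated in the labels.

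Mast cells store tryptases, serine proteases that form a tetramer held together by heparin, in their secretory granules with carboxypeptidase A3 and histamine. They carry the high-affinity IgE receptor, whose cross-linking releases the granules. Myeloid leukemia blasts can also make tryptase, so tryptase RNA alone does not mark a mast cell.

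JMJD1C itself stood at 13.7 FPKM with shRNA63 against 30.4 FPKM in the control, and was called lower (log2 fold change -1.15, error 0.30, q = 0.00214) in the authors' deposited table. FPKM is the fragment count of a gene scaled by transcript length and library size. A gene is called where the authors' q-value was under 0.05, and the error is the size of their log2 fold change over their test statistic. In the libraries labelled shRNA95, JMJD1C had 25.1 FPKM against 29.4 FPKM in the control and was not called (q = 0.938) in the authors' deposited table, so directions given for shRNA95 rest on its label. RUNX1T1, a partner in the fusion, had a log2 fold change of -1.04 (error 0.87) with AML1-ETO shRNA and was not called in the authors' deposited table. Read counts were not used here and the depth of each library is unknown. The progenitor marker genes KIT and CD34, and RUNX1 and RUNX1T1, had 73.3 to 249 FPKM in every group. MPO is listed at 0 in both JMJD1C tables with the status for too many fragments, so it gives no check of the line.

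TPSAB1 and TPSB2 are nearly the same sequence, while TPSD1 is a more distant copy. TPSAB1 encodes alpha and beta tryptase, TPSB2 beta tryptase, TPSD1 the shortened delta tryptase and TPSG1 the membrane-anchored gamma tryptase. In GENCODE release 29, with 1 transcript taken per gene, the coding sequences of TPSAB1 and TPSB2 differed at 4 of 825 aligned bases (99.5% identity). TPSD1 matched each of them at 88.9% of 705 aligned bases, and TPSG1 matched TPSAB1 at 69.9% of 788. Of all 50-base windows of the transcript, 71.9% in TPSAB1 and 72.3% in TPSB2 also occurred in a transcript of another gene, against 11.5% in TPSD1 and 0% in TPSG1. With windows of 100 bases the shares were 59.0%, 59.6%, 0.753% and 0%. The 2 stretches of 60 coding bases below show which copies a read could separate, with capitals at the bases where the 3 genes are not all alike. Bases 103 to 162 from the start codon hold 3 of the 4 bases at which TPSAB1 and TPSB2 differ.
TPSAB1: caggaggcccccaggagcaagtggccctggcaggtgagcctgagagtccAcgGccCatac
TPSB2: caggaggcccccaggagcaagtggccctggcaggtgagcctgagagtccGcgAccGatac
TPSD1: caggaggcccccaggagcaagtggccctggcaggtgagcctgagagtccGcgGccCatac
In the 60 bases from coding base 559, TPSAB1 and TPSB2 were identical, and TPSD1 differed from both at 22 of 60 bases.
TPSAB1: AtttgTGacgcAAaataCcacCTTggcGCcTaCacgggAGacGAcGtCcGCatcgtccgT
TPSB2: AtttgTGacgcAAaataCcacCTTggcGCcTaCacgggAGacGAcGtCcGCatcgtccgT
TPSD1: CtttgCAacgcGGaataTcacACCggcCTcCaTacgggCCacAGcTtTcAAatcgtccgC
These transcripts are on GRCh38, while the tables use hg19, and the sources used here give no read length. The division of FPKM between TPSAB1 and TPSB2 is therefore uncertain, and their sum is given as well.

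The 3 tryptase genes that the authors could test, TPSB2, TPSD1 and TPSAB1, fell with both hairpins, to between 11.3% and 18.9% of control. TPSB2, on hg19 at chr16:1277272-1280214, had 2.69 FPKM with shRNA63 against 23.7 FPKM in the control, and 3.46 FPKM with shRNA95 against 23.0 FPKM in the control. Its log2 fold changes were -3.14 (error 0.30) and -2.73 (error 0.30), both called in the authors' deposited tables (q = 0.00214 and 0.00216). The control level was 8.82 times that with shRNA63 and 6.65 times that with shRNA95. These are bulk samples, in which fewer tryptase-making cells and less tryptase RNA per cell cannot be told apart.

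TPSD1, at chr16:1306060-1308532, had 2.21 FPKM with shRNA63 against 19.1 FPKM in the control, and 2.22 FPKM with shRNA95 against 18.5 FPKM in the control. It was called lower with both, with log2 fold changes of -3.11 (error 0.27) and -3.06 (error 0.33) in the authors' deposited tables. TPSD1 shares its locus in the tables with RP11-616M22.5, so its value may include reads of that gene. RP11-616M22.5 itself stood at -1.72 (error 2.87) with shRNA63 and -3.52 (error 2.16) with shRNA95 and was not called in the authors' deposited tables. TPSD1 fell to 11.6% of control with shRNA63 and 12.0% with shRNA95, and of the 3 detected copies it has the fewest windows in common with other genes.

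TPSAB1, at chr16:1290697-1293619, was the lowest of the 3 detected copies, with 0.824 FPKM with shRNA63 against 4.35 FPKM in the control and 0.729 FPKM with shRNA95 against 4.22 FPKM in the control. Its log2 fold changes were -2.40 (error 0.45) and -2.53 (error 0.47), again called lower in the authors' deposited tables. Its errors were the widest of the 3 copies, and both 95% intervals lay below 0 (-3.27 to -1.53 and -3.46 to -1.61). TPSG1, whose locus entry chr16:1203241-1275257 is shared by 5 genes, had 0.0377 FPKM with shRNA63 against 0.00955 FPKM in the control. With shRNA95 it is listed at 0 against 0.00928 FPKM in the control, and it did not pass the authors' filter for testing in either table.

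The summed FPKM of the 4 tryptase genes does not depend on the division of reads between TPSAB1 and TPSB2 except through their lengths. It was 5.76 FPKM with shRNA63 against 47.2 FPKM in the control, or 12.2% of control, a ratio of -2.83 as log2((FPKM + 1)/(FPKM + 1)). With shRNA95 it was 6.41 FPKM against 45.7 FPKM in the control, or 14.0%, a ratio of -2.66 on that scale. Each sum is 1 value per group, so it has no error or test of its own.

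**Figure D1:**
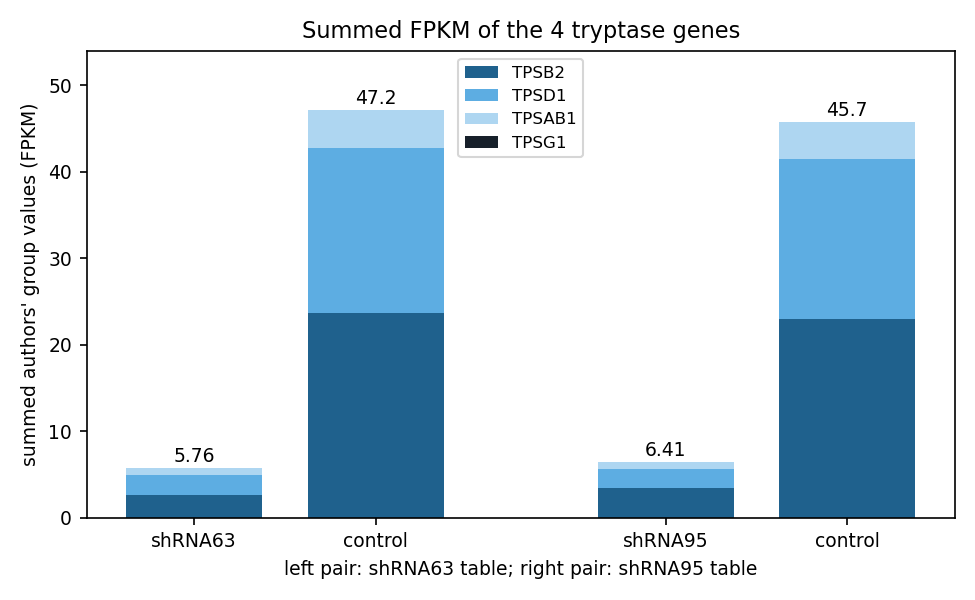
Stacked bars give the authors' group values in FPKM of TPSB2, TPSD1, TPSAB1 and TPSG1, with shRNA63 and its control on the left and shRNA95 and its control on the right. The sums are 5.76 and 6.41 FPKM with the hairpins, against 47.2 and 45.7 FPKM in the controls, and TPSG1 is too low to be seen.

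The make-up of the tryptase sum moved little beside its size. TPSB2 gave 46.6% of it with shRNA63 and 53.9% with shRNA95, against 50.3% in the control of either table. TPSD1 gave 38.4% with shRNA63 and 34.7% with shRNA95, against 40.5% in the controls. TPSAB1 gave 14.3% with shRNA63 and 11.4% with shRNA95, against 9.23% in the controls. These shares have no error and were not tested. Those of TPSAB1 and TPSB2 rest on the uncertain division of FPKM between these genes.

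SLC45A3, a solute carrier first described in prostate and also found in mast cells and basophils, fell by less. It lies on hg19 at chr1:205626979-205649587 and had 15.2 FPKM with shRNA63 against 22.7 FPKM in the control, or 66.9% of control. With shRNA95 it had 14.0 FPKM against 21.97 FPKM in the control, or 63.9%. The log2 fold changes were -0.58 (error 0.25, q = 0.0176) and -0.65 (error 0.26, q = 0.0160), both called in the authors' deposited tables. Among the measured genes, those tested with at least 1 FPKM in the higher group, its ratio ranked 1125 from the lowest of 14475 with shRNA63 and 693 of 14391 with shRNA95. TPSB2 ranked 63 and 81, TPSD1 66 and 76, and TPSAB1 147 and 108 in the same order.

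In all, 4 of the 9 genes were called lower with each hairpin, and none was called higher. With shRNA63, 5.12% of the 18271 tested genes were called, 2.83% lower and 2.29% higher, and 6.67% were lower at an unadjusted p under 0.05, of 13.4% in either direction. With shRNA95, 4.4% of the 18006 tested genes were called, 1.82% lower and 2.59% higher, and 5.1% were lower at an unadjusted p under 0.05, of 12.3% in either direction. The other 5 genes did not pass the authors' filter in these tables, which needs enough fragments, so the 4 called genes are those with a measurable level and not all mast cell genes. Both hairpin comparisons use the same 2 control libraries. The fits therefore share whatever is particular to those libraries, which could not be left out because each group has 1 value per table.

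**Figure D2:**
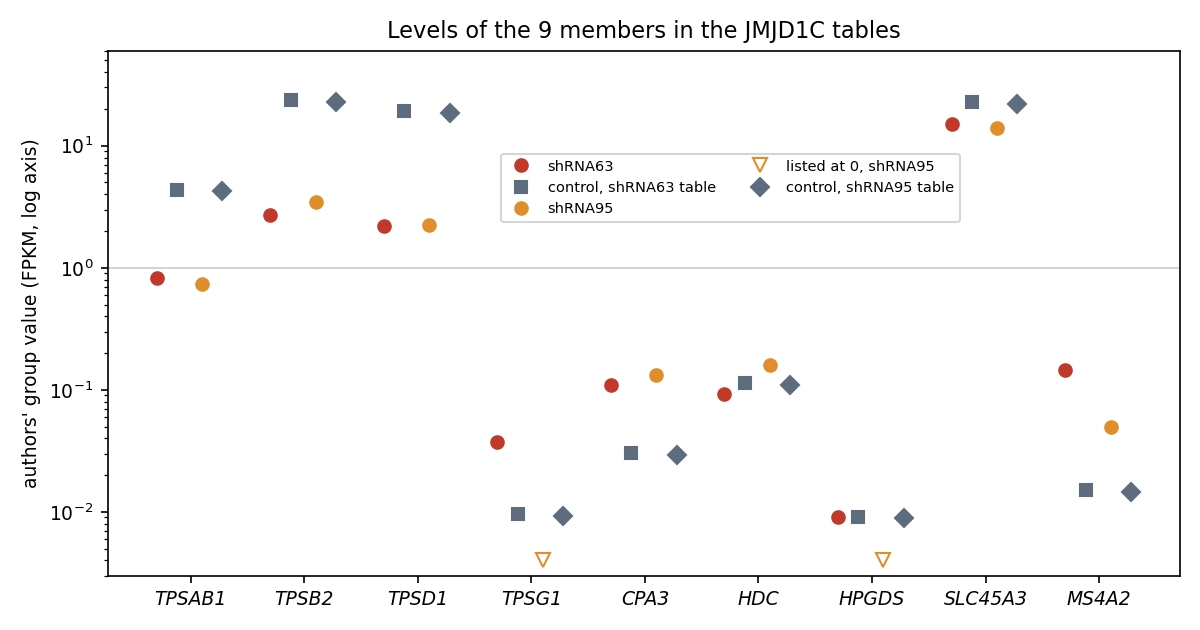
Points give the authors' group value in FPKM on a log axis for each of the 9 genes, with shRNA63 and its control and shRNA95 and its control from left to right, and open triangles mark values listed at 0. TPSAB1, TPSB2, TPSD1 and SLC45A3 stand above 0.7 FPKM in every group, with the hairpin below its control, and the other 5 genes lie under 0.2 FPKM throughout.

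The other mast cell genes were at or near the bottom of the scale, so the label of mast cell genes describes their role and not the state of these cells. All 5 had under 0.2 FPKM in every group of both JMJD1C tables. CPA3, which encodes the granule carboxypeptidase, had 0.110 FPKM with shRNA63 against 0.0301 FPKM in the control, and 0.132 FPKM with shRNA95 against 0.0292 FPKM in the control. HDC, which encodes histidine decarboxylase, the enzyme that makes histamine, had 0.0921 FPKM with shRNA63 against 0.113 FPKM in the control. With shRNA95 HDC had 0.158 FPKM against 0.110 FPKM in the control. The HDC values straddle their controls, and at these levels neither direction was tested.

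MS4A2, which encodes the beta chain of the IgE receptor, had 0.144 FPKM with shRNA63 against 0.0151 FPKM in the control, and 0.0499 FPKM with shRNA95 against 0.0147 FPKM in the control. HPGDS, the blood cell enzyme that makes prostaglandin D, had 0.00916 FPKM with shRNA63 against 0.00911 FPKM in the control, and is listed at 0 with shRNA95 against 0.00884 FPKM in the control. No fold is given for these genes, which the authors did not test. FCER1A, the IgE-binding chain, is listed at 0 in every group of both JMJD1C tables, and CMA1, the mast cell chymase, stood between 0.0233 and 0.0834 FPKM.

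The RefSeq promoter table (GRCh38.p14, 250 bases before to 50 after the start) holds 6 of the 9 genes, and TPSAB1, TPSB2 and TPSD1 have no entry. AGATAA, a form of the site of GATA factors, and TGTGGT, a form of the RUNX site, were searched on both strands. AGATAA occurs in the promoters of CPA3, HPGDS and MS4A2, all under 0.2 FPKM here, and in 10.4% of all 34943 promoters of that length. TGTGGT occurs in that of HDC and in 13.1% of all promoters. SLC45A3, the detected gene with an entry, has neither. The promoters of SLC45A3 (chr1:205680460-205680759, minus strand) and CPA3 (chr3:148865046-148865345, plus strand) are shown as the detected gene and the low gene with the most matches, with AGATAA in capitals.
SLC45A3: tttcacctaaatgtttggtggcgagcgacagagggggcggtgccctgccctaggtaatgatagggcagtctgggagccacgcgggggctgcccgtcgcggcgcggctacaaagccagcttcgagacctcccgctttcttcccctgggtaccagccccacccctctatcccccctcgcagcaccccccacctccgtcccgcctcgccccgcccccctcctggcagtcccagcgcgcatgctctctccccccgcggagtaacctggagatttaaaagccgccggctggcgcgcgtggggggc
CPA3: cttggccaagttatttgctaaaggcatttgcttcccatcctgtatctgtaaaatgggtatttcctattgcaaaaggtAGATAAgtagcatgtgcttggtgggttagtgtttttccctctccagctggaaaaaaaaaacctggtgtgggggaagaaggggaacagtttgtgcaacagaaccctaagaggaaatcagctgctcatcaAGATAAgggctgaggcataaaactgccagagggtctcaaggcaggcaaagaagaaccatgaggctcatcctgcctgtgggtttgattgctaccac
A match gives the letters in the window and not a bound site, and these matches carry no test.

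No difference between the hairpins passed the test for any detected member. Each gene's log2 fold changes with the hairpins were subtracted and divided by their combined error, the p-value was two-sided from the normal curve, and it was adjusted by Benjamini-Hochberg over 13870 genes. TPSB2 differed by -0.41 (shRNA63 minus shRNA95, 95% interval -1.24 to 0.42) and TPSD1 by -0.05 (-0.88 to 0.78). TPSAB1 differed by 0.13 (-1.14 to 1.40) and SLC45A3 by 0.07 (-0.64 to 0.77). All 4 adjusted p-values were over 0.99 and the unadjusted ones lay between 0.336 and 0.909, while 150 of all genes passed. The errors were combined as if independent, although both comparisons use the same control libraries, so these intervals may be too wide. No member passed with the shared control part of the error removed either. The intervals leave room for log2 differences of up to 1.40, so the hairpins are not shown to act alike on these genes. On simulated data for this comparison the test found 0% of 200 changed genes when the simulated log2 difference was 1, 49% when it was 2, and 66.5% when it was 3.

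In the AML1-ETO comparison, SLC45A3 fell and the tryptase genes had large negative values without a call. SLC45A3 had a log2 fold change of -2.51 (error 0.64, q = 0.0487) in the authors' deposited table. It was the 1 member called lower of 7 tested, in a table where 0.411% of 22406 tested genes were called, 0.187% lower and 0.223% higher. TPSAB1 stood at -3.24 (error 0.86, q = 0.0646), TPSD1 at -2.33 (error 0.75, q = 0.384) and TPSB2 at -2.11 (error 0.77, q = 0.403) in the authors' deposited table. At an unadjusted p under 0.05 all 3 tryptases and SLC45A3 were lower, against 3.2% of the tested genes lower and 6.67% in either direction. CPA3, HDC and MS4A2 were tested in this table and not called, at -1.04 (error 0.81), -0.52 (error 0.96) and 0.76 (error 0.79) in the authors' deposited table. HPGDS and TPSG1 were not tested. This comparison rests on 1 library against 1 and has no replicate check, so its test compares those libraries and not the conditions. The levels of these libraries belong to another series and were not analysed here.

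**Figure D3:**
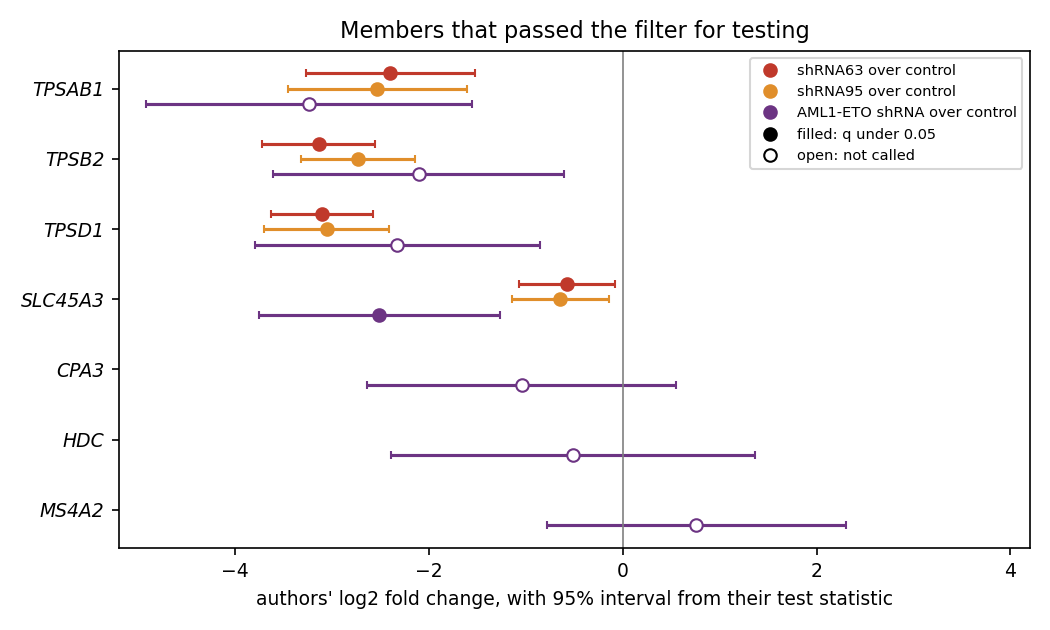
Points give the authors' log2 fold change for the members that passed their filter, with 95% intervals from their test statistic, for shRNA63, shRNA95 and AML1-ETO shRNA from top to bottom within each gene. The 3 tryptases lie between -2.11 and -3.24 in all 3 comparisons, while SLC45A3 lies at -0.58 and -0.65 with the hairpins and at -2.51 with AML1-ETO shRNA.

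Around the member loci, the T-type calcium channel gene CACNA1H moved with the tryptases, which lie beside it on chromosome 16. CACNA1H had 0.514 FPKM with shRNA63 against 1.13 FPKM in the control, and 0.203 FPKM with shRNA95 against 1.10 FPKM in the control. Its log2 fold changes were -1.14 (error 0.45, q = 0.0156) and -2.44 (error 0.59, q = 0.00216), and -4.15 (error 1.12, q = 0.0487) with AML1-ETO shRNA, all called in the authors' deposited tables. Its entry shares the locus of TPSG1, and the level is low.

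Of 68 genes within 100 kb of a member, 29 were tested with shRNA63 and 26 with shRNA95. Of all tested genes, 5.12% were called with shRNA63 and 4.4% with shRNA95. With shRNA63 CACNA1H was the 1 call. With shRNA95 it was joined by 2 genes called higher. They were GYG1, the glycogen primer near CPA3, with 57.9 FPKM against 32.1 FPKM in the control, and MS4A3, a gene of immature myeloid cells near MS4A2, with 88.2 FPKM against 39.8 FPKM in the control. With AML1-ETO shRNA CACNA1H was called lower and MS4A6A, another neighbour of MS4A2, higher. The median log2 ratio of the tested neighbours was -0.03 with shRNA63 and -0.02 with shRNA95, against 0.0087 and 0.03 for all measured genes. The neighbours had no filter on level, while measured genes have at least 1 FPKM, so these medians rest on unlike filters.

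**Figure D4:**
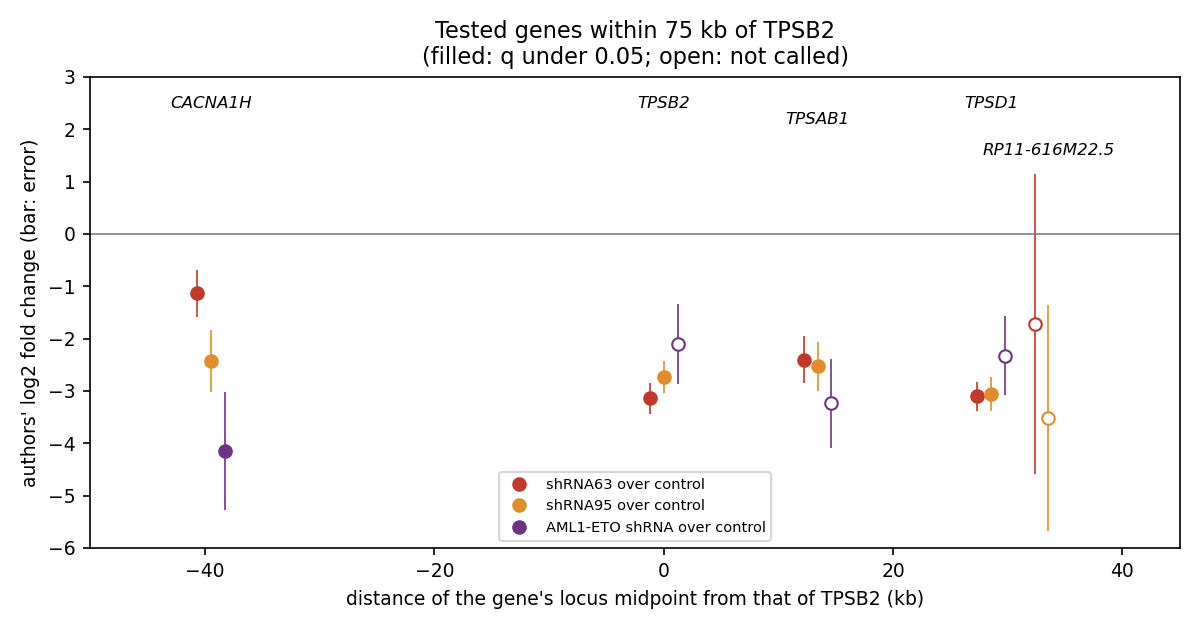
Points give the authors' log2 fold change, with bars of 1 error, for every gene within 75 kb of TPSB2 that was tested and has a finite value, by the distance in kb of the locus midpoint from that of TPSB2. CACNA1H, TPSB2, TPSAB1 and TPSD1 lie below 0 in all 3 comparisons, and RP11-616M22.5, drawn just right of TPSD1 whose locus it shares, has wide bars and no call.

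Genes that handle mast cell mediators split. SLC18A2, the vesicular monoamine transporter that loads histamine into granules, fell to 48.3 FPKM with shRNA63 against 98.2 FPKM in the control, and to 60.7 FPKM with shRNA95 against 95.2 FPKM in the control. Its log2 fold changes were -1.02 (error 0.25, q = 0.00214) and -0.65 (error 0.25, q = 0.00728), and -1.87 (error 0.49, q = 0.0646, not called) with AML1-ETO shRNA in the authors' deposited tables. HPSE, the enzyme that cuts heparan sulfate, was called lower in all 3 tables, at -2.07 (error 0.30), -1.65 (error 0.30) and -4.24 (error 0.76) in the authors' deposited tables. CTSG, which encodes cathepsin G of neutrophil and mast cell granules, went the other way and was called higher in all 3, at 0.84 (error 0.25), 0.60 (error 0.25) and 3.33 (error 0.51) in the authors' deposited tables. SRGN, the core protein that carries heparin in granules, had 234.6 FPKM with shRNA95 against 53.2 FPKM in the control and was called higher there. With shRNA63 SRGN had 57.5 FPKM against 54.9 FPKM in the control, with no call. Of the 13 genes of this list 10 were tested with each hairpin, with 1 higher and 2 lower calls with shRNA63 and 2 higher and 2 lower with shRNA95. Their median log2 ratio over measured genes was -0.07 and 0.03, close to that of all genes.

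Of the IgE receptor and its signalling chain, 14 genes, 12 were tested with each hairpin, with 2 called higher and 3 lower with shRNA63 and 1 and 1 with shRNA95. LYN, the kinase that starts signalling from the receptor, was called lower with both, to 27.7 FPKM with shRNA63 and 39.0 FPKM with shRNA95, against 87.9 and 85.2 FPKM in the controls. The adaptor genes LCP2 (-1.08, error 0.29) and LAT2 (-1.06, error 0.46) were called lower with shRNA63 in the authors' deposited table. SYK, a kinase that acts after LYN, was called higher with shRNA63, at 1.29 FPKM against 0.677 FPKM in the control. FYN was called higher with both hairpins but had under 0.5 FPKM in every group and errors of 3.77 and 3.89, wider than its log2 fold changes of 1.82 and 2.50 in the authors' deposited tables. FCER1G, the gamma chain, had 4.38 FPKM with shRNA63 against 4.52 FPKM in the control and was not called. The list medians were -0.17 with shRNA63 and -0.16 with shRNA95 over measured genes, and -0.17 and 0.0026 over all tested genes of the list.

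Of 17 other surface and marker genes of mast cells, 11 were tested with each hairpin. KIT, the stem cell factor receptor on which mast cells depend, was called lower with shRNA63, at 133.8 FPKM against 245.2 FPKM in the control. In the libraries labelled shRNA95 KIT had 166.0 FPKM against 237.6 FPKM in the control (q = 0.124, not called) in the authors' deposited table. CD33 was called higher with shRNA63. With shRNA95 the granule membrane gene CD63 and the complement receptor genes C3AR1 and C5AR1 were called higher and SVOPL lower. The medians of log2 ratio over measured genes were 0.33 with shRNA63 and 0.42 with shRNA95, but -0.08 and 0.21 over all tested genes of the list, so the sign with shRNA63 depends on the filter. CD34, a progenitor marker outside the list, was called higher with shRNA95 and lower with AML1-ETO shRNA.

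Among 15 transcription factor genes of mast cells and their precursors, 14 were tested with each hairpin. GATA2, a factor of mast cell and progenitor genes, had 21.6 FPKM with shRNA63 against 31.3 FPKM in the control (q = 0.0841, not called) in the authors' deposited table. With shRNA95 GATA2 had 19.3 FPKM against 30.3 FPKM in the control and was called lower (q = 0.0211) in the authors' deposited table. ERG was called lower and SPI1, which encodes the myeloid factor PU.1, higher with both hairpins, and HES1 lower with shRNA63. MITF and GATA1, both factors of mature mast cells, stayed under 0.6 FPKM and were not called. The list medians were -0.25 with shRNA63 and -0.52 with shRNA95 over measured genes, and -0.23 and -0.27 over all tested genes of the list.

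Of 11 eicosanoid enzyme genes 5 were tested with each hairpin. LTA4H, a leukotriene enzyme, was called lower with shRNA63, at 37.7 FPKM against 68.7 FPKM in the control. ALOX5 and its partner ALOX5AP were called higher with shRNA95, at 3.34 FPKM against 0.8999 FPKM and 5.96 FPKM against 3.21 FPKM in the control. The list medians were -0.12 with shRNA63 and 0.28 with shRNA95 over measured genes, and -0.20 and 0.28 over all tested genes of the list.

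**Figure D5:**
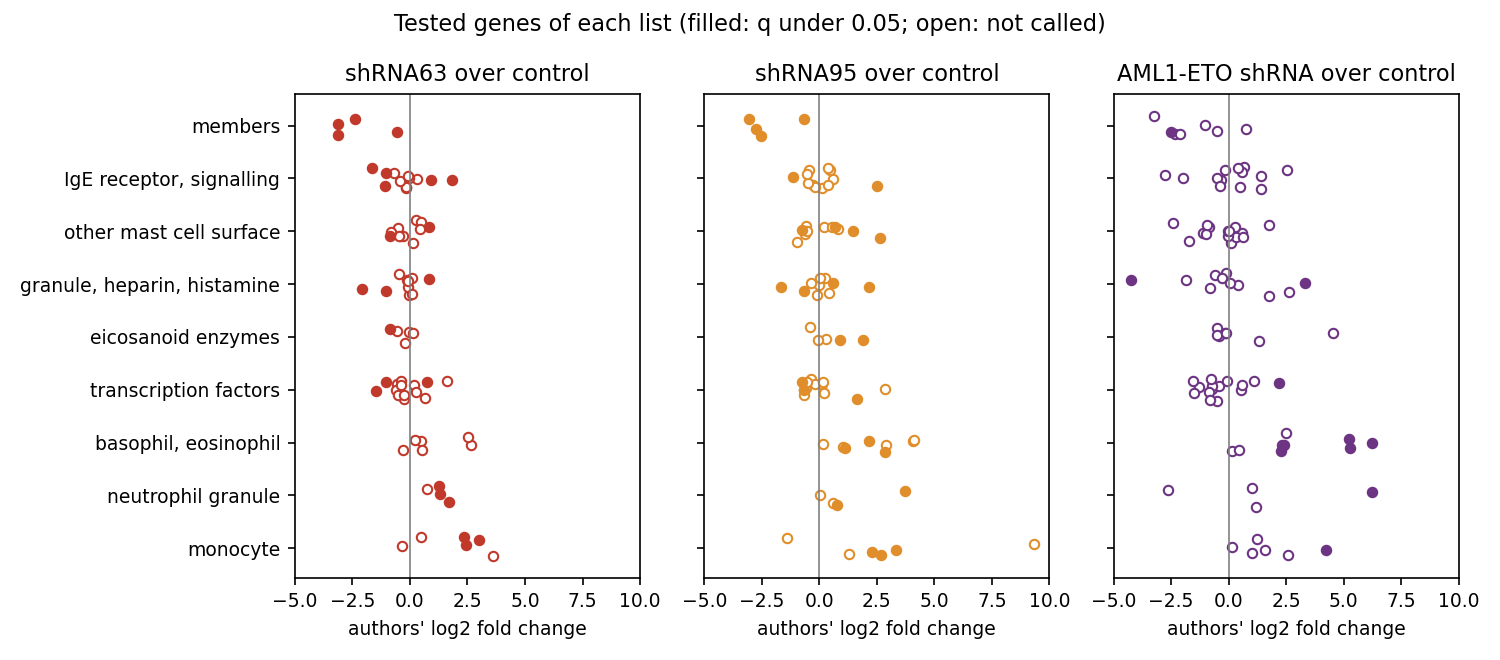
Points give the authors' log2 fold change of each tested gene of 9 lists for shRNA63, shRNA95 and AML1-ETO shRNA over control from left to right, filled where called. The called members lie below 0 in all 3 panels, and the other mast cell lists lie on both sides of 0. The basophil and eosinophil, neutrophil and monocyte lists lie mostly above 0.

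Several markers of other myeloid cells were called higher where the tryptases fell, but many of them not alike with both hairpins. The log2 fold change of ELANE was 1.71 with shRNA63 and 0.02 with shRNA95, and that of BPI was 0.72 and 3.72. LYZ rose with both, at 3.02 and 3.32. The summed level of 10 neutrophil granule genes was 14521 FPKM with shRNA63 against 5590 FPKM in the control. With shRNA95 it was 7842 FPKM against 5422 FPKM in the control. MPO, which had too many fragments to be estimated, counts as 0 in these sums, so they leave its level out. Of that list 3 genes (ELANE, PRTN3 and AZU1) were called higher with shRNA63 and 2 (AZU1 and BPI) with shRNA95, of 4 tested, while LTF, MMP8, LCN2 and the unestimated MPO were listed at 0 in each shRNA group. The list medians were 1.29 and 0.68. The sum of 9 monocyte genes was 201.8 FPKM with shRNA63 against 102.9 FPKM in the control, and 569.8 FPKM with shRNA95 against 99.7 FPKM in the control. Of this list 6 genes were tested with each hairpin. LYZ and MNDA were called higher with both hairpins, CSF1R, under 1 FPKM, with shRNA63 and S100A9 with shRNA95. CD14, FCN1 and VCAN, defining genes of monocytes, stayed under 0.2 FPKM. The monocyte medians, over the 4 measured genes, were 1.48 with shRNA63 and 2.72 with shRNA95. S100A8, among these, had 0.084 and 0.082 FPKM in the controls and was not called with either hairpin.

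The sum of 10 basophil and eosinophil genes was 93.7 FPKM with shRNA63 against 67.8 FPKM in the control, with no call. With shRNA95 it was 197.2 FPKM against 65.7 FPKM in the control, and RNASE2, RNASE3 and CEBPE were called higher. Beyond myeloid cells, the erythroid gene KLF1 was called lower with shRNA95 and the lymphoid genes CD3E and CD79A lower with shRNA63, all under 3 FPKM. The part of these cell type markers in the fall of the tryptases was not tested. The 9 reference genes had no call, and their median log2 ratio was 0.01 with shRNA63 and 0.13 with shRNA95.

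The genes most like TPSB2 and SLC45A3 over the 3 comparisons were found by the Euclidean distance of the authors' log2 fold changes, among 9802 genes with at least 5 FPKM in both controls. Of the members, TPSD1 was nearest to TPSB2 (distance 0.39), and TPSAB1, whose control levels were under that filter, stood at 1.37. Members were left out of the genes named next. For TPSB2 the nearest other genes were SNORD63 (distance 1.38), RP11-839G9.1 (1.56), C11orf9 (1.60), NPR3 (1.63) and TSHZ3 (1.75). Of these, TSHZ3, a zinc finger gene, was called lower in all 3 tables and the natriuretic peptide receptor gene NPR3 with both hairpins in the authors' deposited tables, while SNORD63, RP11-839G9.1 and C11orf9 were called in none. For SLC45A3 the nearest other genes lay closer: SHANK1 (0.26), PTPRM (0.34), MREG (0.38) and 2 genes with clone names (0.33 and 0.38). SHANK1, PTPRM and MREG were not called in any of the authors' deposited tables. These distances span 3 comparisons, 2 of which share their controls, and carry no test. They take no account of the errors, which for C11orf9 were 3.50 with shRNA63, 4.33 with shRNA95 and 9.82 with AML1-ETO shRNA.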

How the data were processed

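RNA of 6 Kasumi-1 libraries was measured by sequencing. The submitters' processing notes name TopHat2 2.0.8b, Cuffdiff 2.1.1 and hg19, with no role or order, and the sources used here do not give the libraries' strand. Per the file headers, each deposited table holds the authors' FPKM per group, log2 fold change, test statistic (a score per gene), p-value and q-value. FPKM was scaled by the authors within a table, so levels were compared only within one. The 2 FPKM columns of the AML1-ETO table belong to another series and were not used. Groups were taken from titles.

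Computed here (Python 3.11.15, pandas 2.3.3, scipy 1.17.1): errors, FPKM sums, ratios with a pseudocount of 1, list counts, neighbours within 100 kb, and the hairpin difference, whose errors under the 10th percentile were raised to it. The normal deviate of the deposited p-value was 1.40 times the statistic at the median for both hairpins, so an error taken from p is narrower for most genes, but wider for genes such as TPSAB1 at the smallest p-value the tables hold (5e-05). The difference test was tested on simulated data. For the hairpin comparisons, p-values measure only the spread between libraries, which may be technical. The AML1-ETO comparison has 1 library per group, so its p-values measure no such spread. All 136 list genes were found. Members and lists were chosen with earlier results of these data known. Named genes are all members, up to 6 called genes per list, called neighbours and the 5 most alike. Alternatives varied the threshold, level filter, pseudocount, scaling, errors and distance.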

Additional observations from a re-analysis of the deposited data

Results flagged for a closer look

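The difference between the hairpins, shRNA63 minus shRNA95 on the log2 scale, passed its test at a Benjamini-Hochberg adjusted p under 0.05 for 6 genes of the lists and for no member. SRGN, the granule proteoglycan core protein, differed by -2.07 (95% interval -2.80 to -1.35), C5AR1 by -2.28 (-3.37 to -1.19) and RNASE2 by -1.94 (-2.64 to -1.24). BPI, a neutrophil granule gene, differed by -2.998 (-4.18 to -1.82) and S100A9, a monocyte list gene, by -1.81 (-2.51 to -1.11). ELANE, which encodes neutrophil elastase, went the other way, at 1.69 (0.98 to 2.39). The intervals rest on a normal approximation and on the authors' errors, combined as if independent despite the shared control.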

How the results depend on the processing

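No value per library was used here, so leaving out a replicate was not run. No paired analysis was possible because each group has 1 value per table and the columns carry no replicate numbers. With each hairpin 4 members were called lower, and 3 at q under 0.01 or with a fold of at least 2, SLC45A3 falling short of both. Intervals from the statistic and centring on the reference genes, chosen after seeing the data, left the 4 lower. The count of members lower with AML1-ETO shRNA was 1, but 0 at q under 0.01 and 4 at an unadjusted p under 0.05. The tryptase sums kept their sign under every alternative, from -2.69 to -3.03 with shRNA63 and from -2.44 to -2.84 with shRNA95. No member passed the test of the hairpin difference as reported, without the error floor, without the level filter, with errors scaled to p, or with errors reduced for the common control. The floor lay below the errors of the detected members, so removing it left those errors unchanged. Scaling to p widened the tryptase errors, for TPSB2 with shRNA63 to 0.77 from 0.30, because their p-values stood at the smallest deposited, 5e-05. Neither setting could therefore make a tryptase difference clearer. Called neighbours numbered 1 of 29 tested within 100 kb and 4 of 101 within 500 kb with shRNA63, where 5.12% of all tested genes were called. With shRNA95 they numbered 3 of 26 and 4 of 100, where 4.4% of all tested genes were called. With a pseudocount of 0.1 the median of monocyte genes with shRNA63 was 2.50 and not 1.48, and 0.71 with no filter on level (2.27 and not 2.72 with shRNA95), and that of basophil and eosinophil genes with shRNA95 was 2.44 and not 1.16. With no filter on level the median of the other surface and marker genes was -0.08 and not 0.33 with shRNA63, and 0.21 and not 0.42 with shRNA95, and 0.66 there with a pseudocount of 0.1. That of the IgE receptor list was 0.0026 and not -0.16, and that of the transcription factors -0.27 and not -0.52, both with shRNA95. Depth is unknown, and the 5 members under 0.2 FPKM are too low for any direction.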
